A study of Mus musculus with 960 samples.

Results

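The replication-dependent histone genes are the 67 protein-coding genes of GENCODE M1 (build mm9) whose symbols begin with Hist1h, Hist2h, Hist3h or Hist4h, out of 22342 protein-coding genes. They were examined in a deposited list of 50000 accessible windows from a mouse breast tumor, and 46 of the 67 had at least 1 window within 1 kb of a start site. The set was chosen by values of these same windows, so the counts below describe the genes and no test was made on them. There is 1 pooled list and no replicate list, and every value rests on it.

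Pi-ATAC measures chromatin accessibility by transposition in single fixed cells whose protein staining is recorded during sorting. The cells came from a breast tumor of an MMTV-PyMT mouse, in which the mammary tumor virus promoter drives the polyoma middle T oncogene in mammary epithelium, taken at 3 months of age. Of the 960 wells labelled here, those on 8 plates carried cells stained for EpCAM and HIF1α and those on 2 plates carried cells stained for EpCAM and CD45, all from PyMT tumor tissue. The windows were called on aggregated cells and named for HIF, and whether the CD45-stained wells entered the list is not given in the sources used here. No normal mammary gland and no second tumor stood beside them. The list holds positions only, so a window that is absent can mean fewer cells with an open site or less signal per cell, and these cannot be told apart.

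Replication-dependent histones package newly made DNA, and their genes lie mostly in clusters and are transcribed mainly in S phase. H2A, H2B, H3 and H4 form the core of the nucleosome and H1 binds the linker DNA between nucleosomes. The mRNAs of these genes are not polyadenylated and end instead at a short stem-loop bound by Slbp, and transcription is organised by Npat in the histone locus body.

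The promoters of 1 divergent H2A and H2B pair and of 1 gene each of H4, H3 and H1 are shown first. These genes had a window within 1 kb of the start, but at Hist1h3b no window reached the stretch shown. Hist1h1t, an H1 gene known from testis that had none, follows. The sequences come from the RefSeq promoter table (build GRCm38.p6), run 5′ to 3′ on the strand of the named gene and end at the base before its RefSeq start. Capitals mark letters found for any of 8 short motifs on either strand, which are the NF-Y box CCAAT, the TATA box TATAAA, the octamer ATTTGCAT read by Pou2f1, the E2F-type letters TTTCCCGC and TTTGGCGC, the letters GGTCCG from the H4 site read by Hinfp, the H1 box AAACACA, and the GC box GGGCGG. Positions below are those of the first base of a motif counted from the RefSeq start, which is 0, with negative values upstream. Where 2 motifs overlap, 1 run of capitals covers both. By exact match the stretches lie in mm9 at chr13:23666077-23666249 on the plus strand (Hist1h2ad), chr13:23853119-23853268 on the minus strand (Hist1h4a), chr13:23844064-23844213 on the plus strand (Hist1h3b), chr13:23855387-23855536 on the plus strand (Hist1h1a) and chr13:23787530-23787679 on the plus strand (Hist1h1t). The first fills the whole space between the RefSeq starts of Hist1h2ad and of its partner Hist1h2bf.
Hist1h2ad and Hist1h2bf, H2A and H2B: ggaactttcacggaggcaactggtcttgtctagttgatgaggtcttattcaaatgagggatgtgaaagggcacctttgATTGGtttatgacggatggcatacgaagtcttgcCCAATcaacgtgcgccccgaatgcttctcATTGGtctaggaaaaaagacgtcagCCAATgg
Hist1h4a, H4: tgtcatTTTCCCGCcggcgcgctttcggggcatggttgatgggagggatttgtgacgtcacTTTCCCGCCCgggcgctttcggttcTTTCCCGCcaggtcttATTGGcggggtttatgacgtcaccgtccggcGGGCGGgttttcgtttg
Hist1h3b, H3: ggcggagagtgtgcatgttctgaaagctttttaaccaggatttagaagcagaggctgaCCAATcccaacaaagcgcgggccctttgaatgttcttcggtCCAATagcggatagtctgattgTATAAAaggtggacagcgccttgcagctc
Hist1h1a, H1: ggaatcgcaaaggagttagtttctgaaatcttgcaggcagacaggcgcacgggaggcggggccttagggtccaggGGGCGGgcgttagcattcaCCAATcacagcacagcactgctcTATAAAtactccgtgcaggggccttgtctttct
Hist1h1t, H1, no window: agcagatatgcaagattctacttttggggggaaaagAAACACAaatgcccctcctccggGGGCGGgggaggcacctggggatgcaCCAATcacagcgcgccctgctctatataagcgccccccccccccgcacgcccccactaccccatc

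Hist1h2ad held CCAAT letters at 4 places between the paired starts, at -95, -61, -32 and -7. Hist1h4a held the TTTCCCGC letters 3 times in the stretch shown, and no other histone promoter of the table held them. It is not typical of H4, as it lacked the GGTCCG letters found in 11 of 12 H4 promoters. It also held CCAAT, found in 3 of the 12. Hist1h3b, whose RefSeq start lies 78 bp downstream of its GENCODE start, had TATAAA at -29 and CCAAT at -51 and -92. Its 2 windows are shared with Hist1h2ab and lie nearer to that gene, with edges 884 and 540 bp from the GENCODE start of Hist1h3b. Hist1h1t, without a window, still held CCAAT, GC box and H1 box letters.

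Of the 67 genes, 46 had a window within 1 kb (68.7%, exact 95% interval 56.2 to 79.4), beside 52.2% of all protein-coding genes. The interval covers counting error only, and genes that share a window do not count independently. Of the 67 genes, 62 have 1 annotated start site, so for few of them could a window count at several places. Among all protein-coding genes with 1 start site, 39.3% had a window within 1 kb. A window lay over the start itself at 39 of the 67 genes, beside 47.4% of all genes. For 28 of the 67 at least 1 window came from a called peak with several kept summits, beside 21.6% of all genes.

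The clusters differed in their counts, which include 9 genes whose repeated starts are described below. Hist1h on chromosome 13, the largest cluster, had 42 of 55 genes with a window (76.4%), while Hist2h on chromosome 3 had 3 of 9, Hist3h on chromosome 11 had 1 of 2, and the single Hist4h gene on chromosome 6 had none. By type, 5 of 6 H1 genes, 12 of 19 H2A genes, 12 of 18 H2B genes, 9 of 11 H3 genes and 8 of 13 H4 genes had a window. The H3 genes of Hist1h all had one (9 of 9), and the 2 H3 genes without a window, Hist2h3c1 and Hist2h3b, lie in Hist2h.

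**Figure D1:**
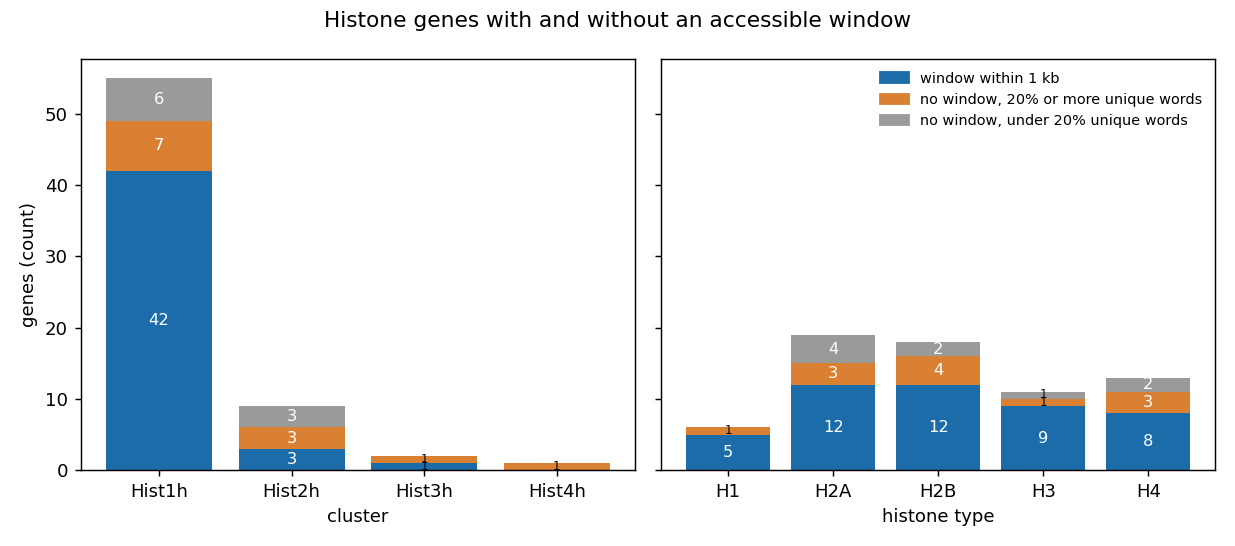
Bars count the histone genes by cluster (left) and by histone type (right), split into genes with a window within 1 kb (blue), genes without one whose start region was at least 20% unique (orange) and genes without one whose start region was under 20% unique (grey). The Hist1h bar holds 42 of the 46 genes with a window.

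Within Hist1h the starts fell into 5 blocks separated by more than 100 kb. The first, from Hist1h2bl to Hist1h2br, spans 117.6 kb and had a window at 10 of 18 genes. The second, from Hist1h2ah to Hist1h2bj, spans 7.57 kb and had one at 5 of 5. The third, from Hist1h4h to Hist1h1a, spans 232.6 kb and had one at 27 of 29, with only Hist1h1t and Hist1h4c lacking it. Counting every window between the outer starts, the third block held 40 windows (17.2 per 100 kb) and the first held 15 (12.8 per 100 kb). The span of the first block includes repeated sequence without a window, described below, so these densities do not compare accessibility alone. Hist1h2ba and Hist1h2aa, a divergent pair known from testis, stand apart from the third block, and Hist1h2al stands alone on the same chromosome. None of these 3 genes had a window.

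**Figure D2:**
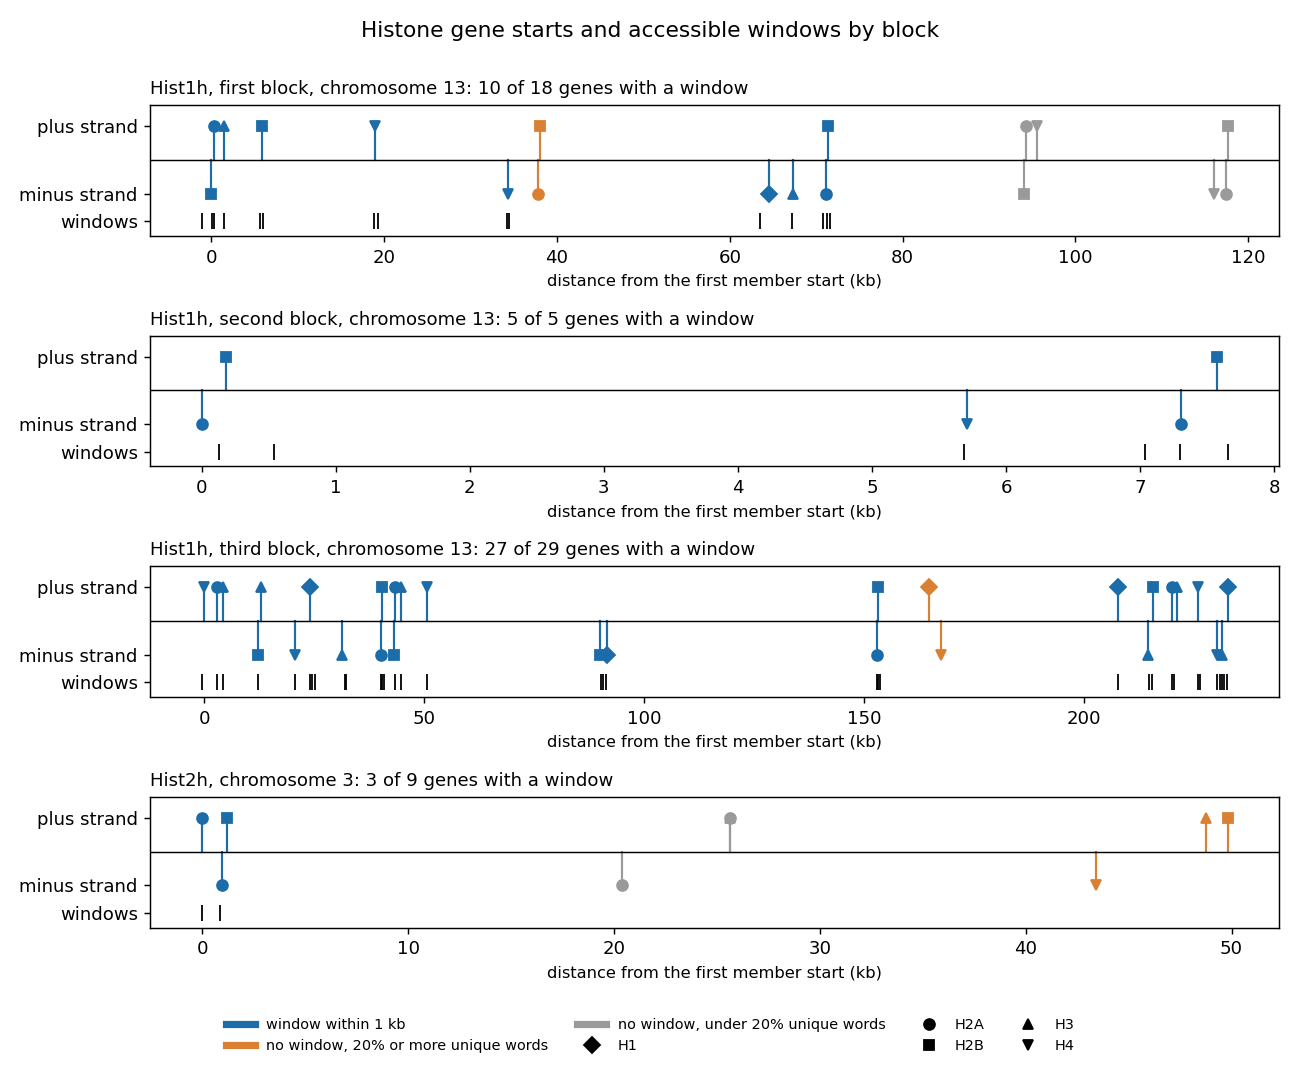
Each stem is the annotated start of a histone gene, drawn up for the plus strand and down for the minus strand, with the distance in kb from the first start of its block on the horizontal axis, a symbol for its type, and ticks for the centres of the windows within 1 kb of a start. Windows sit at 27 of the 29 starts of the third Hist1h block, while the right end of the first block and most of Hist2h hold none.

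Of the 21 genes without a window, 9 have starts that lie in near-identical copies. The study kept uniquely mapped reads only, so the share of 31-base words within 250 bp of the start that occur once in mm9 was computed for every gene. Under 20% of the words were unique at Hist2h2aa2, Hist2h2aa1, Hist2h3c1, Hist1h2bq, Hist1h2ao, Hist1h4m, Hist1h4n, Hist1h2ap and Hist1h2br. None of these 9 had a window, and of all protein-coding genes with so few unique words 24 had one (2.4%). With 75-base words, the length of the study's reads, 0% to 17.6% were unique at these 9 starts. Hist1h2bq to Hist1h4m and Hist1h4n to Hist1h2br form inverted arms in which 99.5% of the 31-base words of one arm recur in the other, and no window lay anywhere from the first arm to the last. Hist2h2aa2 and Hist2h2aa1 shared all of their words (100%). The outer start used for Hist2h3c1 lies beside that of Hist2h2aa1 and 1197 bp before its own coding start. Uniqueness at its RefSeq start, 1131 bp downstream, was not measured. The accessibility of these 9 starts is not known from this list, and the part of read mapping in the missing windows was not tested.

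Apart from these 9 genes, 46 of 58 had a window (79.3%), beside 54.5% of all protein-coding genes with at least 20% unique words. Counted this way, Hist1h had 42 of 49 genes with a window (85.7%) and Hist2h 3 of 6. The first Hist1h block had 10 of 12 (83.3%), beside 27 of 29 in the third. By type, 5 of 6 H1, 12 of 15 H2A, 12 of 16 H2B, 9 of 10 H3 and 8 of 11 H4 genes had one. Where 20% to 80% of the words were unique, 32 of 38 histone genes had a window (84.2%) and 310 of 2098 genes in general did (14.8%). Where 80% or more were unique, 14 of 20 histone genes (70.0%) and 58.9% of all genes had one. Partly repeated sequence was the usual state of these genes, with 56.7% of them in the middle class, beside 9.39% of all genes.

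**Figure D3:**
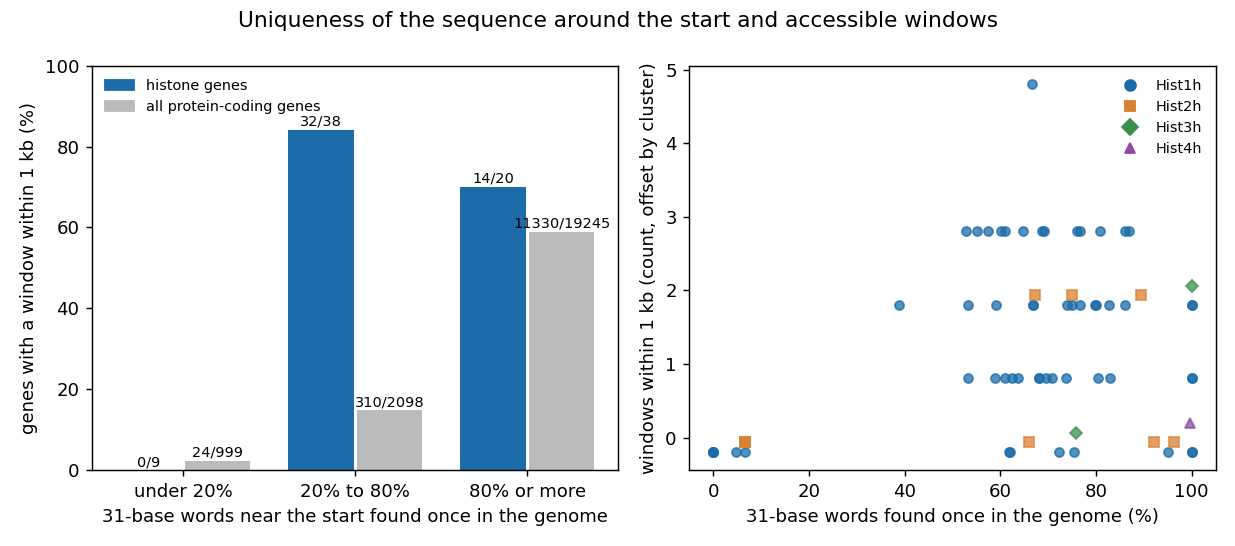
The left panel gives the percent of genes with a window within 1 kb for histone genes (blue) and all protein-coding genes (grey) in 3 classes of sequence uniqueness, with the counts above the bars. The right panel plots the number of windows within 1 kb against the percent of unique 31-base words for each histone gene, shifted slightly by cluster, and the 9 genes at the far left all sit at 0 windows.

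In Hist2h the genes reached were the neighbours Hist2h2ab and Hist2h2ac (H2A) and Hist2h2be (H2B), and the same 2 windows served all 3. Their nearest centres lay at -0.032 kb, 0.102 kb and -0.343 kb from the 3 starts.

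The other 12 genes without a window had 61.8% to 100% unique words. In Hist2h they were Hist2h4, Hist2h3b and Hist2h2bb, whose nearest window centres lay at -14837, 9494 and 8427 bp from the start (negative upstream, as in all distances below). Hist2h2bb has a long model, and its gene body held 2 windows far from the start. Hist4h4, an H4 gene, had its nearest centre at -3865 bp, at the start of H2afj, which encodes a replication-independent H2A. Hist3h2ba, an H2B gene, had its nearest centre at 5796 bp, at the start of Hist3h2a.

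In Hist1h, the pair Hist1h2ak and Hist1h2bn lacked a window with 75.4% and 62.0% unique words. Hist1h1t and Hist1h4c are neighbours in the third block, and their nearest centres lay at -11083 and -12039 bp. The testis pair Hist1h2ba and Hist1h2aa was 95.1% and 100% unique, with the nearest centres at 170547 and -170853 bp, and Hist1h2al had its nearest centre at 31976 bp. The 3 testis histone genes Hist1h1t, Hist1h2aa and Hist1h2ba thus had unique starts and no window. Of 4 other testis genes, Ddx4, Tnp1 and Prm1 had no window and Dazl had 1.

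At the limit of 1 kb, the gene just inside was Hist1h1b, an H1 gene whose only window began 0.763 kb downstream of the start. That window lay wholly past the 3′ end of the gene model. The gene just outside was Hist1h2ak, at 3130 bp. No gene lay between these distances, so a limit of 2000 bp counted the same number of genes, 46, while the share of all protein-coding genes rose from 52.2% to 53.7%. With distance taken to the window centre, 45 genes were reached, beside 51.7% of all protein-coding genes. Hist1h1b was then not reached, which left 4 H1 genes.

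The 46 genes were reached by 59 distinct windows from 35 called peaks. Of the 67 genes, 14 had 1 window, 18 had 2, 13 had 3, 1 had 5 and 21 had none. Hist1h3a, an H3 gene, had the 5 windows, with centres at -1.22, -0.45, 0.008, 0.414 and 1.05 kb. These windows also served its neighbours, since Hist1h4a shared 3 of them and Hist1h1a shared 2. Hist1h1d had 3 windows to itself, at 0.099, 0.494 and 1.13 kb, and all 3 overlapped the model of this H1 gene. Hist1h1e, Hist1h2ac and Hist1h2ae also had 3, of which Hist1h1e shared 2 with Hist1h2be, and Hist1h2ac and Hist1h2ae shared all with their partners Hist1h2bc and Hist1h2bg.

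Sharing was common, as 29 of the 46 genes shared a window with another histone gene. Merging overlapping windows left 39 separate stretches, 500 to 1364 bp long. Of the 59, 41 (69.5%) belonged to a peak for which several summits were kept, beside 39.8% of the whole list. Among all protein-coding genes, a histone gene had the start nearest to each of the 59 (a tie with Trim17 at Hist3h2a included), but 5 genes, Hist1h2ah, Hist1h2bf, Hist1h3b, Hist1h3f and Hist2h2be, were reached only by windows that lay nearer to another histone gene.

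Divergent pairs, in which neighbouring genes on opposite strands are transcribed away from each other, numbered 13, of which 12 joined an H2A and an H2B gene and 1 joined Hist1h2bh to the H3 gene Hist1h3f. Their starts were 0.168 to 0.693 kb apart (median 0.241). Of the 13 pairs, 9 had a window within 1 kb of both starts, 4 had none and 0 had a window at one start alone. Each of the 9 shared a window, as starts this close can be reached by 1 window of 500 bp. The 4 pairs without a window were Hist1h2ak and Hist1h2bn, Hist1h2ba and Hist1h2aa, and the 2 pairs in the inverted arms, which had no unique word at all. A window centre fell between the GENCODE starts in 4 of the 9 pairs, and in the others the centres lay over the transcribed sides. This depends on the annotation. At Hist1h2bl and Hist1h2bh, each in such a pair of the 4, the centre lay 22 and 51 bp inside the gene from the RefSeq start. At Hist1h2ae and Hist1h2bg, 0.176 kb apart, the 3 centres lay 85 bp inside Hist1h2ae and 8 and 500 bp inside Hist1h2bg. At Hist1h2ad and Hist1h2bf, the pair printed above, a single window was centred 13 bp inside Hist1h2ad. Of the 41 genes not in a pair, 28 had a window.

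Window centres lay close to the annotated starts. Over the 46 genes, the nearest centre was at a median of 8 bp (range -790 to 1013), 47.8% of them were upstream and 65.2% were within 100 bp. Over all protein-coding genes with a window the median was -29 bp, with 62.4% upstream and 64.3% within 100 bp. The medians were 73 bp for H1, 17.5 bp for H2A, -40 bp for H2B, -103 bp for H3 and -2 bp for H4. The ranges of all types overlapped, and the H3 values were pulled out by Hist1h3b, Hist1h3f and Hist1h3e, at -790, -659 and -576 bp.

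These distances depend on the annotation, as the start of 9 histone genes is annotated at the first coding base. Measured to the coding start instead, the median was -26 bp. Measured to the RefSeq start, placed on mm9 for 61 genes, it was 22 bp, and 29 of the 61 had the same start base in both annotations. No gene changed its call between these annotations, with 42 of the 61 reached in each.

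**Figure D4:**
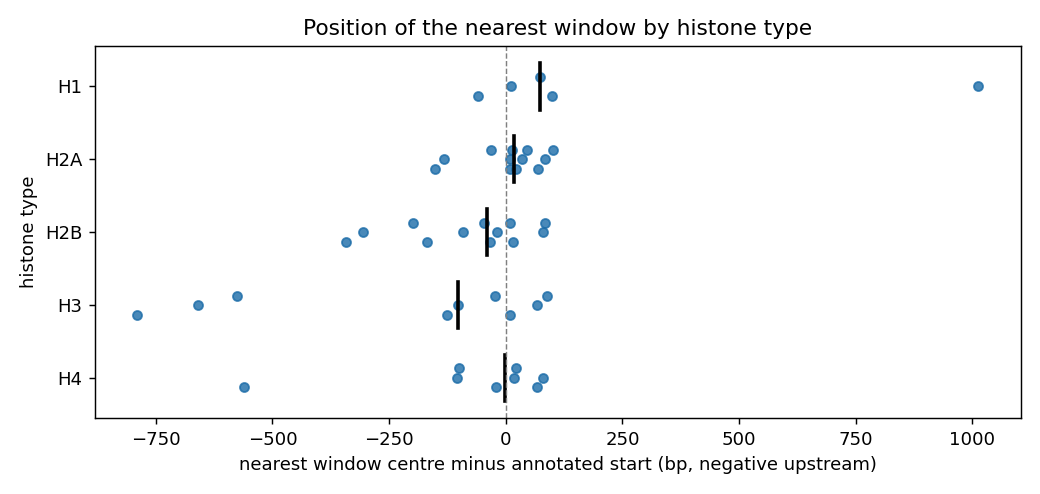
Points give the distance in bp from the annotated start to the nearest window centre for the 46 genes with a window, negative upstream, by histone type, and black bars are the medians. Most points lie within 100 bp of the start (65.2%), with an H3 gene as far as -790 bp and Hist1h1b at 1013 bp.

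Hist1h2be, an H2B gene, has a long model that begins 35168 bp before its coding start, beside Hist1h1e, and the 2 windows counted for it there are shared with Hist1h1e. Its coding start had a window centre 56 bp away, and 3 windows lay within 1 kb of the second RefSeq start there. It was therefore reached at both ends of the model. Hist3h2a shares its start base with a Trim17 transcript, so its 2 windows, centred at 0.022 and 0.486 kb, belong equally to both genes.

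Sequence around the starts was rich in CpG whether or not a window was found. The observed over expected CpG ratio within 250 bp of the start had a median of 0.908 in histone genes with a window and 0.923 in those without. Of those without, the 12 with at least 20% unique words had a median of 0.829. Among all protein-coding genes the medians were 0.794 with a window and 0.25 without. Hist1h1t, at 0.467, was the lowest of the genes without a window, although Hist1h2bb with 2 windows was lower still at 0.449. The median GC content was 52.9% in histone genes with a window and 53.7% in those without, beside 63.1% and 49.7% in all protein-coding genes with and without one. In the 12 histone genes without a window and with at least 20% unique words it was 53%.

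Of the 67 genes, 61 had an entry in the RefSeq promoter table, whose windows run from 250 bases before the start to 50 after it. Hist1h2al, Hist1h2bc, Hist1h3a, Hist1h3f, Hist2h2be and Hist2h4 had none. CCAAT letters were in 52 of the 61 promoters (85.2%), beside 37.4% of all 32851 promoters. They were in all promoters of H1 (6), H2A (18), H2B (16) and H3 (9), but in 3 of 12 H4 promoters. At least 2 copies stood in 44 of the 61 (72.1%), beside 11.7% of all promoters. In most divergent pairs the 2 promoters overlap, so the same copy of CCAAT or another motif can count for both genes. Near-identical promoters in the inverted arms also count more than once. The 61 promoters are therefore not independent.

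The other letters divided by type. GGTCCG was in 11 of 12 H4 promoters (91.7%), at a median position of -46, and in 8.25% of all promoters, and Hist1h4a was the H4 gene without it. The H1 box letters AAACACA were in 5 of 6 H1 promoters, at -122 to -112, and in 7.18% of all promoters, and Hist1h1a was the H1 gene without them. ATTTGCAT was in 7 of 18 H2A and 7 of 16 H2B promoters, which face each other in the pairs and so can hold the same copy, and in 1.74% of all promoters. TATAAA was in 35 of the 61 (57.4%), beside 13.6% of all. These matches were counted on either strand and lay at -250 to 41 (median -39). In Hist1h2ad and Hist1h4a the only match lay downstream of the start, at 30 and 41. The count therefore does not show a TATA box in each of these promoters. GGGCGG was in 37.7%, beside 35.7% of all, TTTCCCGC was in Hist1h4a alone (1.07% of all), and TTTGGCGC was in 0 of the 61 (0.514% of all).

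The letters were also counted by window, and the promoters without one include those of the 9 genes with under 20% unique words. CCAAT was in 36 of 42 promoters with a window and 16 of 19 without, and GGTCCG was in 9 and 4 of them. TATAAA, at any position in the promoter, was in 27 of 42 (64.3%) and 8 of 19 (42.1%), and ATTTGCAT was in 26.2% and 15.8%. No difference was tested, and a match to these letters does not show that a factor was bound.

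The stem-loop that ends the mRNA was searched as a perfect 6 bp stem with a loop of 4 bases within 100 bases of the stop codon of any coding transcript. It was found in 63 of the 67 genes (94.0%), beside 6.51% of all protein-coding genes, starting 22 to 59 bases after the stop. The forms below come from the mm9 genome, with the loop in capitals, and each is named by 1 gene that holds it. They are shown because the family shares this element while its promoters differ. Those of Hist1h2ad (chr13:23666764-23666779), Hist1h1t (chr13:23788394-23788409) and Hist1h4d (chr13:23673819-23673834) all lie on the plus strand.
Hist1h2ad, H2A: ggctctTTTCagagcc
Hist1h1t, H1: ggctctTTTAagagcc
Hist1h4d, H4: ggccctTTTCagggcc

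The first form stood in 39 genes of 4 types and the second in 9. The third stood in 8 genes, all of them H4, and no H4 gene carried the first or second form. No such stem-loop was found in Hist1h2al, Hist1h2an, Hist2h2bb and Hist2h2be. Of the 63 stem-loops, 12 lay under a window, although 44 of these genes had a window within 1 kb of the start. It was present in Hist1h1t and in all 6 genes of the inverted arms on chromosome 13, which had no window.

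Coding sequences were compared within 4 of the types, and the H1 genes, which differ in length, were not compared. All 13 H4 genes encode 1 identical protein from coding sequences 85.4% to 100% identical, and 8 of them had a window. The 11 H3 genes encode 2 proteins, with coding sequences 93.6% to 99.8% identical. Of the H2B genes, 16 of 18 had coding sequences of the usual length, and these encode 9 proteins from coding sequences 85.2% to 100% identical. The H2A genes of the usual length, 15 of 19, encode 6 from coding sequences 77.7% to 100% identical.

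Genes that act on the histone genes or their products mostly had a window. These lists were chosen with earlier results known, and their counts stand beside the 52.2% of all genes. All 15 genes for histone gene transcription and the histone locus body had one, among them Npat with 2 windows, and Pou2f1 and Nfya, which encode an octamer-binding factor and a subunit of the CCAAT-binding factor NF-Y, with 4 and 3. Cdc25a, a phosphatase that activates Cdk2, also had 3. All 11 genes of 3′ end processing had one, including Slbp and Lsm11, a subunit of the U7 snRNP, with 2 each and the cleavage factor gene Cpsf2 with 3. Of 15 chaperone and assembly genes 14 had one, among them Daxx with 4 and Asf1a, Hira and Rbbp4 with 3 each, and Hjurp, the chaperone of the centromeric Cenpa, had none.

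Of 20 genes for DNA replication and S phase, 18 had a window, with Mcm7 and Mki67 at 3 each, and Mcm4 and Pcna had none. Of 10 matched genes for replication-independent histone variants 9 had a window, and all 10 had at least 84.5% unique words. Of the replication-dependent genes, 46 of all 67 had a window. The count was 46 of 58 with at least 20% unique words and 14 of 20 with 80% or more. No difference between the 2 kinds was tested. H3f3b, an H3.3 gene, had 4 windows and H2afj had 3, and H2afy2 had none. H1f0 had no match in the annotation used.

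The other genes inside the blocks also had windows. Hfe, an iron regulator in the third Hist1h block, had 2, Gm17658 had 1 and Trim17 had 2. The window of Gm17658 was that of Hist1h4d, and the windows of Trim17 were those of Hist3h2a. Of the histone pseudogenes, which are outside the set, Hist1h2aj and Hist3h2bb-ps had 2 windows each and Hist2h3c2 had none. The windows of Hist1h2aj were those counted for Hist1h2bm, and the windows of Hist3h2bb-ps were those of Hist3h2a. The centre 85 bp from the start of Hist1h2bm lay 2 bp from that of Hist1h2aj. All 6 epithelial marker genes had a window (Epcam, the stained protein, with 3). None of the 4 blood markers or 3 endothelial markers had one, and of 3 fibroblast markers Pdgfra did, with 3.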

How the data were processed

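Windows were examined in 1 list deposited by the authors. Per the labels and methods, single cells of the tumor were transposed after fixation and staining and sequenced as paired ends. Reads were aligned to mm9 with Bowtie2 2.1.0, and duplicates (Picard 1.79), mitochondrial and non-unique reads were removed. MACS2 peaks were called with summits on aggregated cells, and the strongest were kept. The deposited values are genome positions (window starts and ends, 500 bp wide), with no score, count or depth, so no depth, replicate error or test can be given. The submitters' notes also list hg19, which was not used.

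The genes and lists were chosen with earlier results of these data known. A gene counted as reached when the edge of a window lay within 1000 bp of a start of a protein-coding GENCODE M1 transcript (45993 starts). The centre of a window stood for its summit. Intervals for shares were exact binomial. Words of 31 bases, and of 75 for the histone genes, were counted over the mm9 chromosomes. RefSeq promoters were matched by older symbols and placed on mm9 by exact match. Named genes were, by rule, those with most windows, those without a window, those at the distance limit, all of Hist2h, Hist3h and Hist4h, and the testis genes. Others named (Hist1h2be, Hist1h3e, Hist1h3f, the pair examples, the stem-loop examples Hist1h2ad and Hist1h4d, and Npat, Nfya, Slbp, Hira and Rbbp4) were chosen after their values were seen. Counting was tested on simulated data with planted windows. Python 3.11.15, NumPy 2.4.6, SciPy 1.17.1, numba 0.67.0 and matplotlib 3.10.9 were used. Alternatives changed the distance, the reference point, the windows kept, the starts and the genes admitted. Promoters shown were the first by symbol with a window and a table entry, and of each pathway list the 2 genes with most windows (ties by symbol) and those without any were named.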

Additional observations from a re-analysis of the deposited data

How the results depend on the processing

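Of 74 values recomputed under alternatives, 65 stayed within 1.5 times the value reported, or, for the summit median, inside its middle range. The 65 include Hist4h, at 0 under every setting. They also include the 20% uniqueness limit, which removed only genes without a window. Keeping only windows of called peaks with several kept summits lowered the genes reached to 28, Hist1h to 27, Hist2h to 0, H3 to 4 and H4 to 4. H2A and H2B fell from 12 to 8 each and the pairs reached from 9 to 6, exactly at the limit of 1.5 times, and were counted among the 65. Keeping only genes with 80% or more unique words left 14 of 20, a smaller set by construction. Merging overlapping windows turned 59 windows into 39 stretches. The median summit distance changed sign, from 8 to -23 bp with all summits within the limit and to -26 bp from the coding start, so the side of the start is not settled by these windows; the cause was not tested. Limits of 500 bp and 0 bp gave 44 and 39 genes, beside 51% and 47.4% of all protein-coding genes. Counting each window for its nearest gene alone gave 41. The share of all protein-coding genes under that rule was not computed, so the 41 cannot be set against it. The 20% uniqueness limit, RefSeq starts and coding starts were chosen after seeing the data. No paired analysis was possible because 1 pooled list has no replicates. Depth limits every absence, since the list holds the strongest windows of pooled cells and neither reads nor cells per window are known.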
